A study of Plutella xylostella with 12 samples.

Results

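Male larvae of the diamondback moth (Plutella xylostella), a pest of cabbage crops, were compared at 10 °C and at 25 °C. The comparison set the 3 libraries labelled male and 10 °C against the 3 labelled male and 25 °C, which are 6 of the 12 libraries of the series, and covered all genes. Each library held RNA from the whole bodies of 8 larvae taken midway through the fourth instar. Per the labels' protocols, both groups came from a laboratory population fed on cabbage, grew at 25 °C until early in the third instar, and then stayed at 25 °C or were placed at 10 °C. No allele or chemical agent distinguished the groups. The other 6 libraries are female larvae at the same temperatures, and the series asks whether the response to cold depends on sex. In whole bodies, fewer cells of a tissue and less RNA per cell cannot be told apart.

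Insects do not hold their own body temperature, so cold slows their growth, feeding and metabolism together. Molecular chaperones of the heat shock families guard proteins during thermal stress in many insects, and the mitochondrial genome encodes core subunits of the respiratory chain that drives energy use. In the last larval instar the fat body of moths makes storage proteins for metamorphosis, while the gut makes digestive proteases and enzymes that disarm plant defence compounds. Hox genes set the identity of body segments.

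The 10 °C libraries held 30106219, 15901066 and 11883289 gene reads in replicates 1, 2 and 3, and the 25 °C libraries held 13956365, 12143738 and 17754105. In the shallowest of these, a gene at 0 reads could have been present at up to 0.252 CPM (reads scaled to a common library size). This stands for 3 reads before any further scaling and covers counting error only. Levels below are CPM scaled by the trimmed mean of M-values (TMM). On that scale 3 reads in 25 °C replicate 2 stand for 0.294 CPM. The TMM factors were 1.03 to 1.38 for the 10 °C libraries and 0.806 to 0.843 for the 25 °C libraries. A fold change is log2 of 10 °C over 25 °C with its standard error. A gene was called when the edgeR quasi-likelihood test over these 6 libraries gave it a Benjamini-Hochberg adjusted p below 0.05 across all 13487 tested genes. The 47 tested genes with a symbol are described by role, and the rest carry locus identifiers for which no function is given. Positions are as the files give them, on scaffolds of a build that is not named in the sources used here.

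The cold male libraries were unlike each other in how far they stood from 25 °C. On the first principal component of log2 CPM, which held 67.1% of the variance, 10 °C replicates 1, 2 and 3 stood at -102, -3.52 and -161, and the 25 °C replicates at 91.9, 108 and 65.8. Replicate 2 of 10 °C thus stood between the other cold libraries and the 25 °C group. Relative to the mean of the 25 °C libraries, 3605 genes were at least 2-fold higher and 3076 at least 2-fold lower in 10 °C replicate 1, 3613 and 3566 in replicate 3, and 1562 and 1013 in replicate 2.

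**Figure D1:**
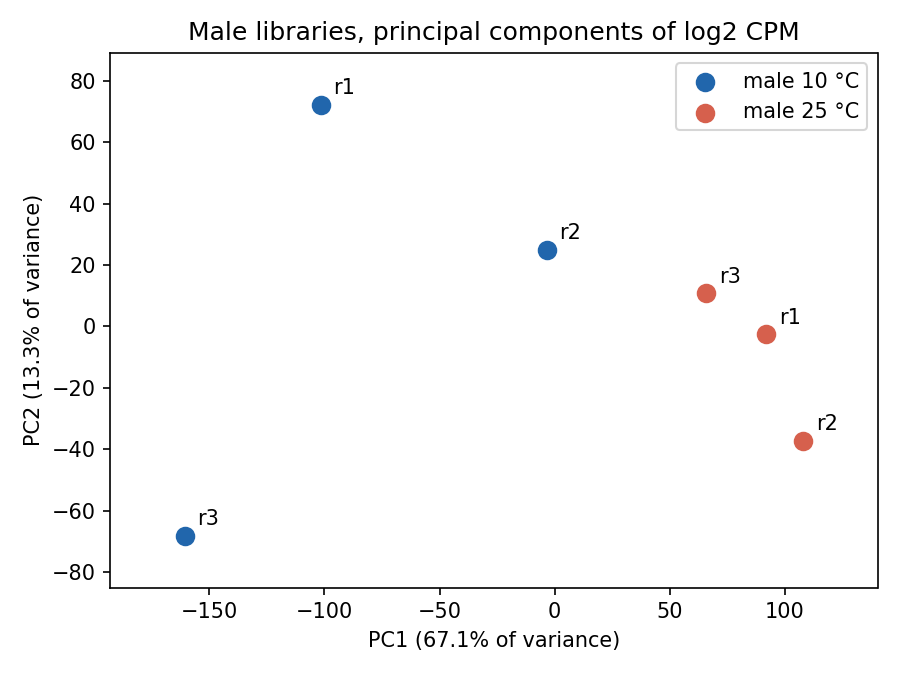
Principal components of log2 CPM of the 6 male libraries, with PC1 (67.1% of the variance) across and PC2 (13.3%) up the page; each point is a library (r, replicate). The 25 °C libraries lie together at 65.8 to 108 on PC1, while the 10 °C libraries spread from -161 to -3.52.

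The cold libraries also departed from the male 25 °C level at genes that differed by sex at 25 °C, replicate 3 the most. Of genes defined as male-high from the 25 °C libraries of both sexes alone (adjusted p below 0.05, at least 16-fold and at least 5 CPM in males), there were 395. Their median level was 34.8%, 55.5% and 0.0969% of the male 25 °C mean in the libraries labelled male 10 °C replicates 1, 2 and 3, and 98.2%, 103% and 98.6% in the male 25 °C libraries. In replicate 3, 189 of the 395 had 0 reads, against 0 in each other male library. Female 10 °C replicates 1, 2 and 3 held these genes at medians of 0%, 8.86% and 33.6%, with 217, 9 and 1 at 0 reads. Male 10 °C replicate 3 thus lay among libraries labelled female, and female 10 °C replicate 3 lay near male 10 °C replicate 1. Whether the sex labels of these libraries hold was not tested. The 43 genes higher in females at 25 °C are given as percent of the female 25 °C mean. Their medians were 87.3%, 25.2% and 96.2% in male 10 °C replicates 1, 2 and 3. In male 25 °C replicates 1, 2 and 3 they were 11.3%, 10.0% and 13.9%. Within the libraries labelled female they also varied, from 56.8% in 25 °C replicate 4 to 163% in 10 °C replicate 2. The 25 °C libraries of both sexes chose both lists, so these values describe the libraries and carry no test. The part of this departure in the results was not tested, and the counts of calls are also given without replicate 3.

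In 10 °C replicate 3, 587 tested genes stood at least 4-fold below every other male library, against 15 in replicate 1 and 3 in replicate 2. In the opposite direction, 58 genes stood at least 4-fold above every other male library in replicate 1, 14 in replicate 3 and 3 in replicate 2. The 25 °C libraries gave 3, 62 and 2 such genes above and 54, 173 and 8 below in replicates 1, 2 and 3. Among genes with a symbol, Gss was the one that stood so far above in 10 °C replicate 1, PxANTI2 the one so far below in 10 °C replicate 3, and ND6 the one so far above in 25 °C replicate 2.

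In the fit of the 6 male libraries more genes rose than fell at 10 °C, but the split depended on the fit. In that fit, 855 of 13487 genes rose at 10 °C (6.34%) and 230 fell (1.71%), together 8.04%, and 4753 had an unadjusted p below 0.05. The genes that rose had a median log2 change of 3.07 and those that fell of -1.95, against 0.07 over all tested genes. All 1085 called genes changed at least 2-fold, 711 of the rises and 105 of the falls changed at least 4-fold, and in each called gene every 10 °C library lay outside the range of the 25 °C libraries. Among all tested genes, 3438 had every 10 °C library above every 25 °C library (25.5%) and 2918 had every one below (21.6%). With at least a 2-fold gap between the nearest libraries of the groups there were 906 above (6.72%) and 315 below (2.34%).

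The number of calls hung on single libraries and on the fit. Of the 1085 calls, 2 had an edgeR adjusted p below 0.04, so the rest lay between 0.04 and the limit of 0.05. Leaving out 10 °C replicate 1, 2 or 3 gave 2, 5577 and 1 calls, and leaving out 25 °C replicate 1, 2 or 3 gave 0, 0 and 1. All calls of the fits with 1 or 2 calls were lower at 10 °C, and those without 10 °C replicate 2 were 3342 higher and 2235 lower. DESeq2 called 2782 higher and 1251 lower, and voom 3073 higher and 2575 lower. In the fits that called 0 genes, 3483 and 3822 genes had an unadjusted p below 0.05. Every called gene that was tested in these 6 fits kept its sign. A fit of all 12 libraries called 3 of 15027 genes (0.02%), all of them lower at 10 °C and all among the 1085. The median adjusted p of the 1085 genes in that fit was 0.0555. At an adjusted p below 0.1, a limit chosen after seeing these values, the male fit called 2325 higher (17.2%) and 1120 lower (8.3%) and the fit of all libraries called 2910 genes (19.4%), of which 1036 were among the 1085. At that limit 1453 genes were called without 10 °C replicate 3 and 1 to 2 without any other single male library except 10 °C replicate 2.

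**Figure D2:**
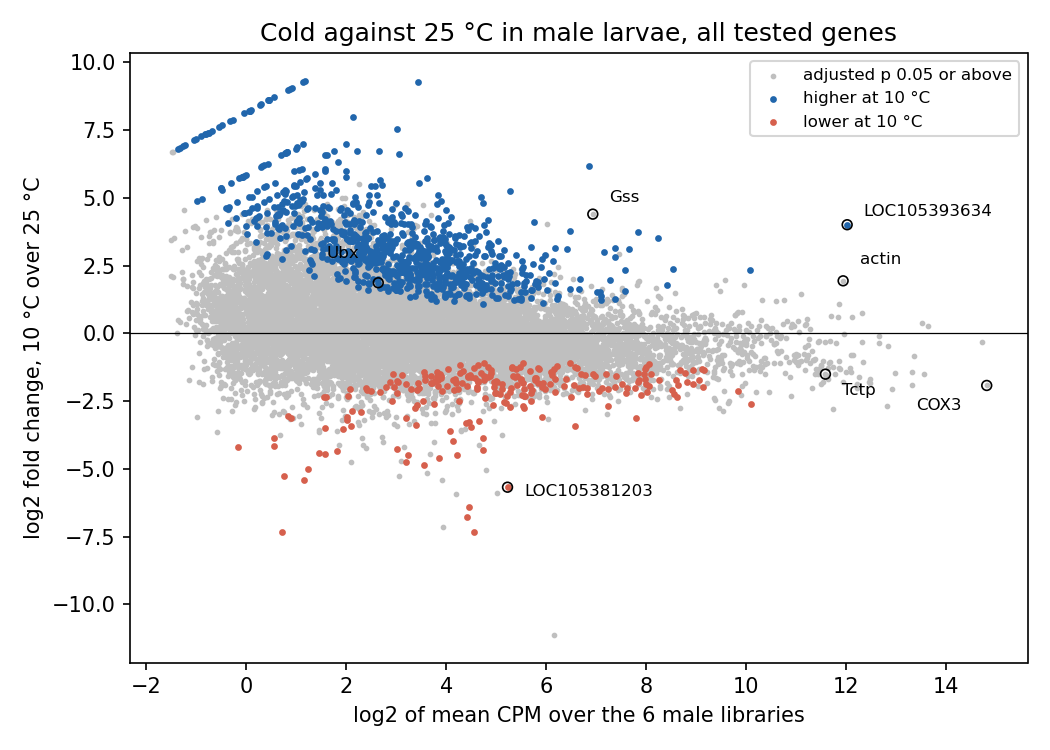
log2 fold change, 10 °C over 25 °C, against log2 of the mean CPM over the 6 male libraries for the 13487 tested genes; blue and red points are the 855 higher and 230 lower calls. Rises reach larger sizes than falls, and the straight lines of points at the upper left are genes with 0 or very few reads at 25 °C.

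Replicate 2 was the mildest cold library for most called genes. The genes that rose stood at a median log2 ratio of 2.79, 1.37 and 2.72 to the 25 °C mean (0.5 CPM added) in 10 °C replicates 1, 2 and 3, and the genes that fell stood at -2.08, -1.41 and -2.32. Replicate 2 was the lowest of the cold libraries for 819 of the 855 rises (95.8%) and the highest for 168 of the 230 falls (73.0%). Among all tested genes whose groups did not overlap, it was the lowest for 80.8% of the 3438 above. It was the highest for 78.5% of the 2918 below, so this held beyond the called genes. Of the rises, 725 were still at least 2-fold above the 25 °C mean in replicate 2, against 853 in replicate 1 and 852 in replicate 3. For the falls these counts were 207, 230 and 230. The genes were chosen on these same libraries, so the values are a description.

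Genes that rose had a median of 1.77 CPM at 25 °C and genes that fell of 49.6 CPM, against 8.40 CPM for all tested genes. Of the 855 rises, 267 were below 1 CPM in every male 25 °C library and 32 had 0 reads in all of them. Their fitted fold changes are no bound, but with 3 reads over the 25 °C group put in their place the median stayed at 3.07. None of the 230 falls had 0 reads in all 10 °C libraries, and 17 were below 1 CPM in every one. Rises had a median of 10 exons and 2254 bp of exon, falls a median of 4 exons and 1118 bp, and all tested genes of 6 exons and 1680 bp. Single-exon genes made up 3.27% of the rises and 14.8% of the falls, against 8.52% of all tested genes.

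The balance of rises and falls shifted with gene length. In the shortest of 4 equal classes, up to 1067 bp of exon, 3.26% of genes rose and 3.26% fell, with a median log2 change of -0.61. In the longest, from 2623 bp, 9.43% rose and 0.741% fell, with a median of 0.56. The slope of level with exon length, in log2 CPM per doubling after subtracting the mean of each gene in the male libraries, was 0.297, -0.092 and 0.422 in 10 °C replicates 1, 2 and 3 and -0.199, -0.239 and -0.188 in the 25 °C libraries. Cold libraries averaged 0.209 ± 0.268 and 25 °C libraries -0.209 ± 0.0269 (SD, n = 3 each, exact permutation test, two-sided, p = 0.1, the lowest value such groups can give). After offsets that removed the length trend of each library, 827 genes rose and 232 fell, and the shortest class then had 5.89% higher and 1.75% lower. Of the 1085 genes, 863 were still called with the offsets. Of the rises, 108 lay in 51 runs of neighbouring tested genes, none longer than 3, and 20 of the falls lay in 10 pairs. Over all tested genes 6.34% were called higher and 1.71% lower. These are shares of single genes and cannot be set directly against the part of called genes that lay in runs. Whether called genes lay together more often than these shares give was not tested. The pairs of falls include LOC105398164, LOC105383573, LOC105382118 and LOC105387993, which are described below.

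The fit of all 12 libraries also called a fall at 3 loci. LOC105381203 (scaffold NW_011952052, 1220204 to 1226260, plus strand, 4 exons) was at 1.42, 1.65 and 1.22 CPM in 10 °C replicates 1, 2 and 3 and at 75.2, 91.3 and 53.6 CPM at 25 °C. The groups were far apart and the cold libraries, replicate 2 included, nearly coincided. Its log2 change was -5.68 ± 0.37 (edgeR adjusted p = 0.00581), and it kept its call without any of the 10 °C libraries or 25 °C replicate 3, but not without 25 °C replicate 1 (adjusted p = 0.0684) or 2 (adjusted p = 0.0606).

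LOC105387993 (NW_011952205, 283580 to 287689, 6 exons) was at 2.28, 3.29 and 2.08 CPM in the cold libraries and at 35.4, 58.3 and 59.1 CPM at 25 °C, and fell by 4.32 ± 0.38 on the log2 scale (edgeR adjusted p = 0.0275). LOC105386543 (NW_011952163, 105193 to 107344, 3 exons) was at 4.07, 4.51 and 3.79 CPM at 10 °C and at 43.7, 46.1 and 28.5 CPM at 25 °C (-3.26 ± 0.33, edgeR adjusted p = 0.043). Only 0.421% of the reads of LOC105386543 mapped uniquely, so they cannot be placed at this locus with certainty. In both loci the cold libraries lay within a narrow band, replicate 2 included. Both kept their call without 10 °C replicate 2 and lost it without any other male library (edgeR adjusted p from 0.0811 to 0.155).

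The falls with the largest fold among loci of at least 10 CPM at 25 °C included 2 where a single 25 °C library was far above the others. LOC105398164 (NW_011952029, 1046874 to 1049811) was at 0.210, 0.610 and 0.0611 CPM in the cold libraries and at 12.5, 125 and 3.12 CPM at 25 °C (-7.33 ± 1.59, edgeR adjusted p = 0.0436). LOC105383573 (NW_011952093, 768941 to 771464) was at 0.105, 0.731 and 0.366 CPM and at 1.87, 102 and 22.1 CPM (-6.79 ± 1.51, edgeR adjusted p = 0.0437). In both, 25 °C replicate 2 carried most of the group mean, and the log2 change without it was -4.77 and -5.01. Voom did not call LOC105398164 (adjusted p = 0.496) or LOC105383573 (adjusted p = 0.531), and neither passed in edgeR with no filter on low counts (adjusted p = 0.0524 and 0.0541).

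LOC105385735 (NW_011952143, 540665 to 543274) gave a more even picture, at 0.919, 0.183 and 0.305 CPM in the cold libraries and 36.7, 32.4 and 61.5 CPM at 25 °C (-6.41 ± 0.67, edgeR adjusted p = 0.043). LOC105382118 (NW_011952067, 907145 to 910385) was at 1.02, 0.853 and 0.428 CPM and at 19.0, 36.8 and 12.5 CPM (-4.85 ± 0.58, edgeR adjusted p = 0.0435). Neither locus showed overlap between groups, and in neither was 10 °C replicate 2 the cold library nearest to 25 °C.

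Falls with the largest loss in CPM had a different profile, with 10 °C replicate 2 well above the other cold libraries. LOC105398550 (NW_011952034, 484704 to 485472, 353 bp of exon) was at 142, 635 and 142 CPM in the cold libraries and at 1914, 1686 and 2015 CPM at 25 °C (-2.61 ± 0.64, edgeR adjusted p = 0.0494). LOC105385018 (NW_011952125, 374059 to 376536) was at 203, 627.5 and 202 CPM and at 1427, 1523 and 1520.0 CPM (-2.11 ± 0.51, edgeR adjusted p = 0.048). LOC105391136, LOC105384007 and LOC105387546 fell with that same library standing apart, by log2 values of -1.98 ± 0.45, -1.74 ± 0.39 and -1.85 ± 0.41 in turn (edgeR adjusted p from 0.0436 to 0.0444). In all 5 loci the 25 °C libraries lay close together and cold replicate 2 lay between them and the other cold libraries. The 5 loci had 353, 389, 404, 501 and 1329 bp of exon in turn. With the exon-length offsets their log2 changes were -1.92, -1.36, -1.19, -0.95 and -1.74.

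Among loci of at least 10 CPM at 10 °C, the largest rises mostly started from almost no reads. LOC105392528 (NW_011952404, 305564 to 310774, 4 exons) was at 16.8, 3.72 and 44.2 CPM in the cold libraries and at 0, 0 and 0.0694 CPM at 25 °C, where it had 1 read in all against 1425 at 10 °C. The ratio of levels was 721, with a 95% exact counting interval of 129 to 28505 that leaves out the spread between pools (edgeR adjusted p = 0.0435). LOC105390424 (NW_011952298, 17684 to 32994, 17 exons) was at 25.2, 1.52 and 10.75 CPM and at 0.178, 0 and 0.139 CPM (log2 6.74 ± 1.26), and LOC105385218 (NW_011952129, 645372 to 663413, 27 exons) at 20.5, 3.35 and 25.9 CPM and at 0.0889, 0 and 0.347 CPM (log2 6.64 ± 1.11), both with an edgeR adjusted p of 0.0435. Cold replicate 2 was the lowest cold library at each of these loci and still lay above all 25 °C libraries.

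LOC105381635 (NW_011952059, 1281772 to 1289634) was at 599, 21.4 and 67.7 CPM in the cold libraries and at 1.33, 2.64 and 5.42 CPM at 25 °C (log2 6.18 ± 1.37, edgeR adjusted p = 0.0437). Here 10 °C replicate 1 carried most of the rise, and the log2 change without it was 3.83. LOC105389538 (NW_011952018, 486904 to 513582, 18197 bp of exon) was at 13.0, 4.75 and 55.0 CPM and at 0, 0.294 and 0.972 CPM (log2 5.75 ± 1.28, edgeR adjusted p = 0.0437). There 10 °C replicate 3 was the highest library.

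The rise with the largest gain in CPM was that of LOC105393634 (NW_011952478, 31478 to 33178, minus strand, 1164 bp of exon). It was at 10025, 3177 and 10209.5 CPM in 10 °C replicates 1, 2 and 3 and at 328, 374 and 750.2 CPM at 25 °C, a log2 change of 4.01 ± 0.62 (edgeR adjusted p = 0.0435). LOC105395498 (NW_011952674, 79136 to 80927) was at 3003, 956 and 1434 CPM and at 232, 338 and 497 CPM (log2 2.34 ± 0.53, edgeR adjusted p = 0.0437). LOC105395015 (3.51 ± 0.73), LOC105394799 (2.37 ± 0.41) and LOC105385516 (3.75 ± 0.64) came next by CPM gained (log2 changes in brackets), each with an edgeR adjusted p of 0.0435. At all 5 loci cold replicate 2 was the lowest cold library.

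**Figure D3:**
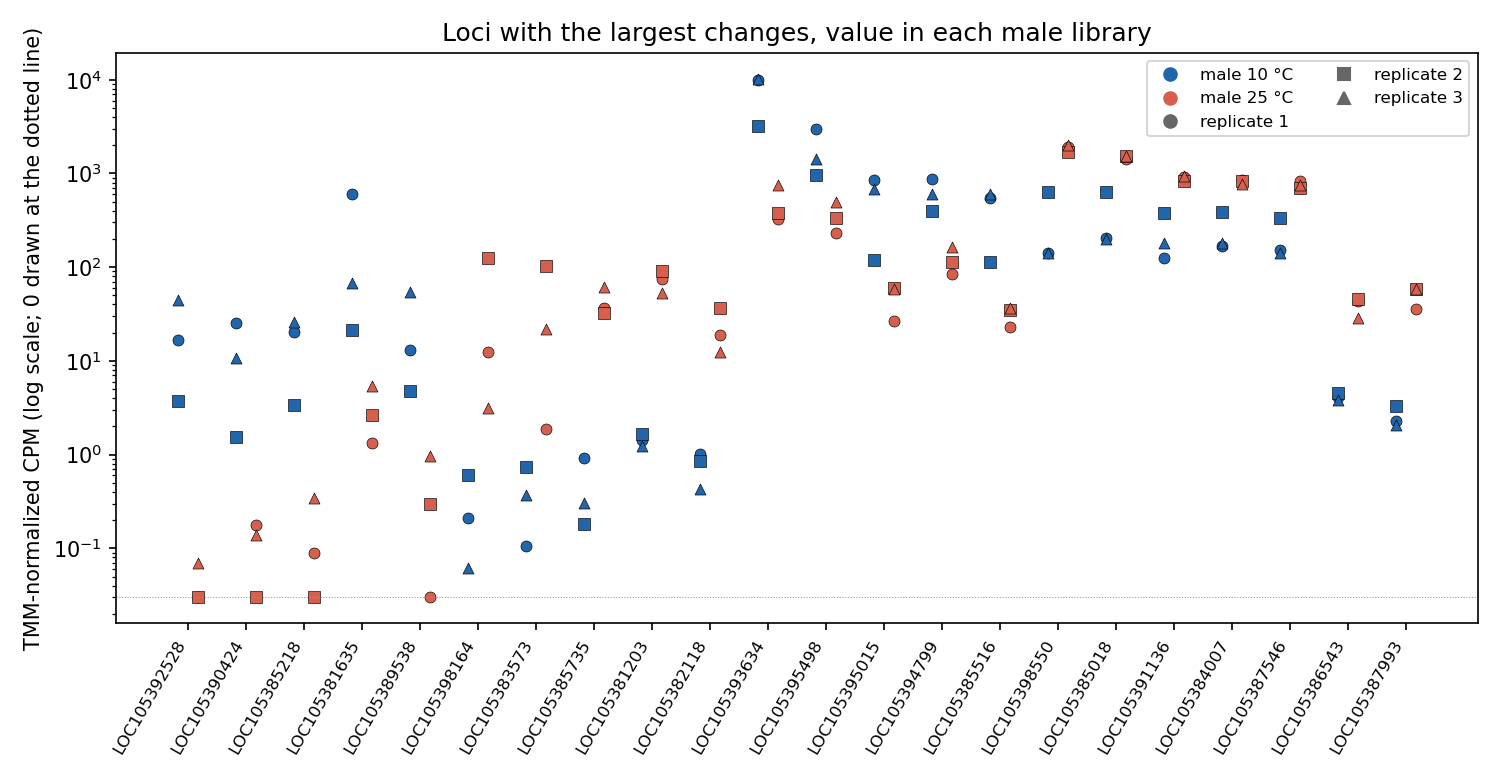
TMM-normalized CPM on a log scale in each male library for the 22 loci described above by fold, by CPM difference or as called in the fit of all 12 libraries; blue symbols are 10 °C and red 25 °C, shapes are replicates, and 0 is drawn at the dotted line. The groups do not overlap at any locus, and cold replicate 2 (squares) stands apart from the other cold libraries at most rises, while the cold libraries nearly coincide at LOC105381203, LOC105386543 and LOC105387993.

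Of 47 tested genes with a symbol, 1 rose and 0 fell at an adjusted p below 0.05, beside 6.34% higher and 1.71% lower among all genes. Of the 47, 16 had an unadjusted p below 0.05, beside 4753 of all 13487 tested genes. At an adjusted p below 0.1 there were 3 higher and 8 lower, beside 17.2% and 8.3% of all tested genes. DESeq2 called 4 higher and 10 lower at 0.05, beside 2782 and 1251 of 15850 genes. Voom called 4 higher and 17 lower, beside 3073 and 2575 of 13487 genes. Ubx, the Hox gene Ultrabithorax, was the gene that rose (LOC105386783, NW_011952169, 481034 to 587247). It was at 10.1, 6.70 and 12.6 CPM in the cold libraries and at 2.31, 2.15 and 3.54 CPM at 25 °C, so the groups were clearly apart (log2 1.87 ± 0.44, edgeR adjusted p = 0.0457). Its call was kept without 10 °C replicate 2 and lost without any other male library (log2 from 1.65 to 2.16 over the 6 fits). With the exon-length offsets the log2 change of Ubx was 1.43 and its edgeR adjusted p 0.0552.

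An actin gene, whose product is part of the cytoskeleton and muscle, just missed the limit. It was at 4126, 3770.1 and 10755 CPM at 10 °C and at 1576, 1385 and 1899.8 CPM at 25 °C (log2 1.94 ± 0.50, edgeR adjusted p = 0.0525), and 56.6% of its reads mapped uniquely, so its level is uncertain. The locus with the symbol EcRA (LOC105394159), named for a receptor of the moulting hormone ecdysone and counted here over all its exons and introns, so that isoforms cannot be told apart, was at 136, 159 and 169 CPM and at 129, 95.7 and 142 CPM (0.34 ± 0.28, edgeR adjusted p = 0.406), with overlapping groups.

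All 13 mitochondrial mRNAs had negative log2 changes, except that ND4L turned to 0.07 with the exon-length offsets. In edgeR 0 of the 13 passed, with 6 at an unadjusted p below 0.05, beside 4753 of all 13487 tested genes. At an adjusted p below 0.1 there were 4 of the 13, all lower, beside 8.3% of all tested genes. DESeq2 called 6 and voom 10 of the 13 lower, beside 1251 of 15850 and 2575 of 13487 genes. Their median change was -1.30, beside 0.07 over all tested genes, and 7 of them had every cold library below every 25 °C library, beside 21.6% of all genes. They took 4.09%, 9.85% and 7.59% of gene reads in 10 °C replicates 1, 2 and 3 and 12.3%, 9.45% and 11.5% at 25 °C, so cold replicate 2 lay among the 25 °C libraries. The group means were 7.18% ± 2.90 and 11.1% ± 1.46 (SD, n = 3 each, exact permutation test, two-sided, p = 0.2).

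Among the 7 genes for NADH dehydrogenase subunits, which pass electrons into the respiratory chain, the changes ran from -2.98 for ND6 to -0.66 for ND4L. ND3 was at 50.002, 502 and 128 CPM at 10 °C and at 1438, 896 and 1754 CPM at 25 °C (-2.59 ± 0.80, edgeR adjusted p = 0.0728). ND6 was at 0.787, 5.36 and 2.08 CPM and at 8.45, 45.9 and 10.2 CPM (-2.98 ± 0.91, edgeR adjusted p = 0.0708). In ND3 the cold libraries spanned a 10-fold range, all below 25 °C. ND5 (-0.77 ± 0.46) and ND4L (-0.66 ± 0.59) had overlapping groups.

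The other 6 mitochondrial genes encode subunits of cytochrome c oxidase, cytochrome b and the ATP synthase. COX3 was at 3646, 23997 and 8297 CPM at 10 °C and at 48734, 42045 and 45352 CPM at 25 °C (-1.92 ± 0.69, edgeR adjusted p = 0.0975). ATP6 was at 3308, 8230.4 and 4989 CPM and at 16586, 11251 and 16674 CPM (-1.43 ± 0.46, edgeR adjusted p = 0.0781). Replicates 1 and 3 of 10 °C were far below 25 °C at both genes, and replicate 2 less so. COX1, from the same mitochondrial genome, had -0.31 ± 0.42 with overlapping groups, at 16163, 29809.6 and 26329 CPM in cold and 32562, 23961 and 33078 CPM at 25 °C. COX2, CYTB and ATP8 had -1.50 ± 0.63, -0.84 ± 0.46 and -1.06 ± 0.62.

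The 3 ribosomal protein genes had negative log2 changes, except that Rps3 turned to 0.35 with the exon-length offsets and to 0.0040 without 10 °C replicate 1. Of these 3 genes 0 passed in edgeR, and 1 had an unadjusted p below 0.05, beside 4753 of all 13487 tested genes. DESeq2 called 0 and voom 2 of the 3 lower, beside 1251 of 15850 and 2575 of 13487 genes. Outside this list, Tctp (NW_011952254, 528457 to 530502), a growth-related gene, was at 1119, 2566 and 1111 CPM at 10 °C and at 4816, 4496 and 4292 CPM at 25 °C, with a log2 change of -1.50 ± 0.44 (edgeR adjusted p = 0.0645). The ribosomal protein genes RpL24 (-1.22 ± 0.51) and RpS13 (-1.04 ± 0.46) had every cold library below 25 °C, with edgeR adjusted p of 0.133 and 0.146. RpS13 was at 732, 2066 and 857 CPM in cold and at 2494, 2501 and 2529.9 CPM at 25 °C, where the libraries hardly differed. Rps3, a further ribosomal protein gene, had -0.19 ± 0.33 with overlapping groups, and eIF4A, an RNA helicase that starts translation, had -0.25 ± 0.35. Ubiquitin, the tag that marks proteins for breakdown, was at 883, 2532 and 743 CPM and at 4413, 3594 and 3751 CPM (-1.50 ± 0.52, edgeR adjusted p = 0.0923). In Tctp, RpL24, RpS13 and ubiquitin alike, 10 °C replicate 2 was the cold library nearest to 25 °C.

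Heat shock genes gave 0 calls among 4 in edgeR, where 1 had an unadjusted p below 0.05, beside 4753 of all 13487 tested genes. DESeq2 and voom each called hsp19.5 lower, beside 1251 of 15850 and 2575 of 13487 genes. Hsp90, a chaperone of signalling proteins, was at 1078, 1138 and 1001 CPM in cold and 1102, 1018 and 1002 CPM at 25 °C (0.04 ± 0.28, edgeR adjusted p = 0.922), with overlapping groups and a value that turned to -0.34 with the exon-length offsets. The constitutive chaperone hsc70 was at 2780.0, 2084 and 2729 CPM and at 2995, 3002 and 3244 CPM (-0.28 ± 0.32, edgeR adjusted p = 0.533), with every cold library below 25 °C. The small heat shock protein gene hsp19.5 was at 47.6, 305 and 81.9 CPM in cold and at 799, 264 and 599.9 CPM at 25 °C (-1.93 ± 0.74, edgeR adjusted p = 0.11), overlapping through cold replicate 2. Hsp69, an hsp70 relative, was at 149, 143 and 25.2 CPM and at 118, 96.5 and 116 CPM (-0.06 ± 0.59). Its single low library was cold replicate 3, where the male-high genes were lowest. Without that library its log2 change was 0.41.

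Of 3 storage protein genes 0 passed in edgeR, where 1 had an unadjusted p below 0.05, beside 4753 of all 13487 tested genes. The arylphorin genes PxAry1 and PxAry2 (NW_011952208, 398647 to 401687 and 406766 to 409981), whose products feed amino acids into metamorphosis, were at 30831 and 28462 CPM in 10 °C replicate 1 and between 5246 and 5640 CPM in replicates 2 and 3, with the 25 °C libraries between 9781 and 12114 CPM. Cold libraries thus lay on both sides of the 25 °C group (0.27 ± 0.71 and 0.37 ± 0.69), and without replicate 1 the values were -1.08 and -0.90. PxSP1, a storage protein gene on the same scaffold, was at 2326, 1199 and 2882 CPM in cold and at 1096, 655 and 1082 CPM at 25 °C (1.18 ± 0.43, edgeR adjusted p = 0.101). All cold libraries lay above 25 °C at PxSP1, and DESeq2 and voom called it higher, beside 2782 of 15850 and 3073 of 13487 genes.

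Gss (NW_011952305, 279937 to 281084), a glucosinolate sulfatase that disarms defence compounds of cabbage, was at 618, 23.7 and 57.5 CPM in cold and at 5.87, 15.3 and 11.9 CPM at 25 °C (4.40 ± 1.23, edgeR adjusted p = 0.0604). All cold libraries lay above 25 °C, but replicate 1 carried the mean, and the log2 change without it was 1.89. DESeq2 and voom called Gss higher. Tryp_SPc1, a trypsin-type digestive protease gene, was at 7295, 3260 and 1209 CPM and at 2369, 4164 and 5548 CPM (-0.04 ± 0.65), with groups fully interleaved. Pxapn-a, an aminopeptidase gene of the midgut, had 0.02 ± 0.52, and 49.6% of its reads mapped uniquely.

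Sugar metabolism was represented by 2 genes. Pgm (NW_011952016, 1200058 to 1202286), for phosphoglucomutase, was at 304, 398 and 251 CPM in cold and at 554, 617 and 647 CPM at 25 °C, with a log2 change of -0.93 ± 0.30 (edgeR adjusted p = 0.078). The cold libraries were all lower and, unlike those of the mitochondrial genes, close to each other. Gapdh, of glycolysis, was at 1924, 1300.1 and 1361 CPM and at 1633, 1797 and 1780.1 CPM (-0.18 ± 0.32), with overlapping groups.

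Among nervous system genes, 0 of 4 tested passed in edgeR, DESeq2 or voom. In edgeR 0 had an unadjusted p below 0.05, beside 4753 of all 13487 tested genes. Th, for tyrosine hydroxylase, which serves dopamine synthesis and cuticle tanning, was at 12.0, 6.40 and 21.6 CPM in cold and at 4.80, 36.8 and 3.96 CPM at 25 °C (-0.18 ± 0.88), and turned to 1.54 without 25 °C replicate 2. The neuropeptide gene Ast-a (allatostatin A) had -0.70 ± 0.46, the glutamate-gated chloride channel gene Glucl 0.69 ± 0.51 and the GABA receptor gene Rdl-1 0.87 ± 1.07. Of the Glucl reads 74.0% mapped uniquely, and on unique reads its log2 change was 0.16. The acetylcholinesterase gene ace1 was too low to be tested, with 135, 10 and 42 reads in the cold libraries and 0, 3 and 0 reads at 25 °C. The odorant receptor gene lOR16, also untested, had 31, 7 and 32 reads in cold and 3, 0 and 7 reads at 25 °C. Rdl-2, CSP3 and lOR18 had from 0 to 19 reads in any male library.

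None of the remaining genes with a symbol passed in edgeR. PxSDF2-l1 (-0.82 ± 0.30, edgeR adjusted p = 0.0995) and PxANTI1 (-0.35 ± 0.31) had every cold library below 25 °C. Voom called PxSDF2-l1 lower (adjusted p = 0.0122), but 55.0% of its reads mapped uniquely, and its log2 change on unique reads was -0.37. The genes bre-5 and pxAhh had -0.35 ± 0.29 and -0.29 ± 0.40. Fkbp13, a peptidyl-prolyl isomerase gene, was at 132, 18.8 and 17.8 CPM in cold and at 36.5, 24.5 and 22.5 CPM at 25 °C (1.02 ± 0.77), a value that turned to -0.59 without 10 °C replicate 1. PxANTI2 was at 28.5, 54.1 and 1.28 CPM in cold and at 52.8, 49.6 and 43.0 CPM at 25 °C (-0.79 ± 0.96), with its low value in 10 °C replicate 3. Nf2, PGRP-S1 (an immune recognition gene) and the glutathione transferase gene pxgstu, all below 2 CPM in every male library, had 0.30 ± 0.60, 0.44 ± 0.75 and -0.02 ± 0.68.

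**Figure D4:**
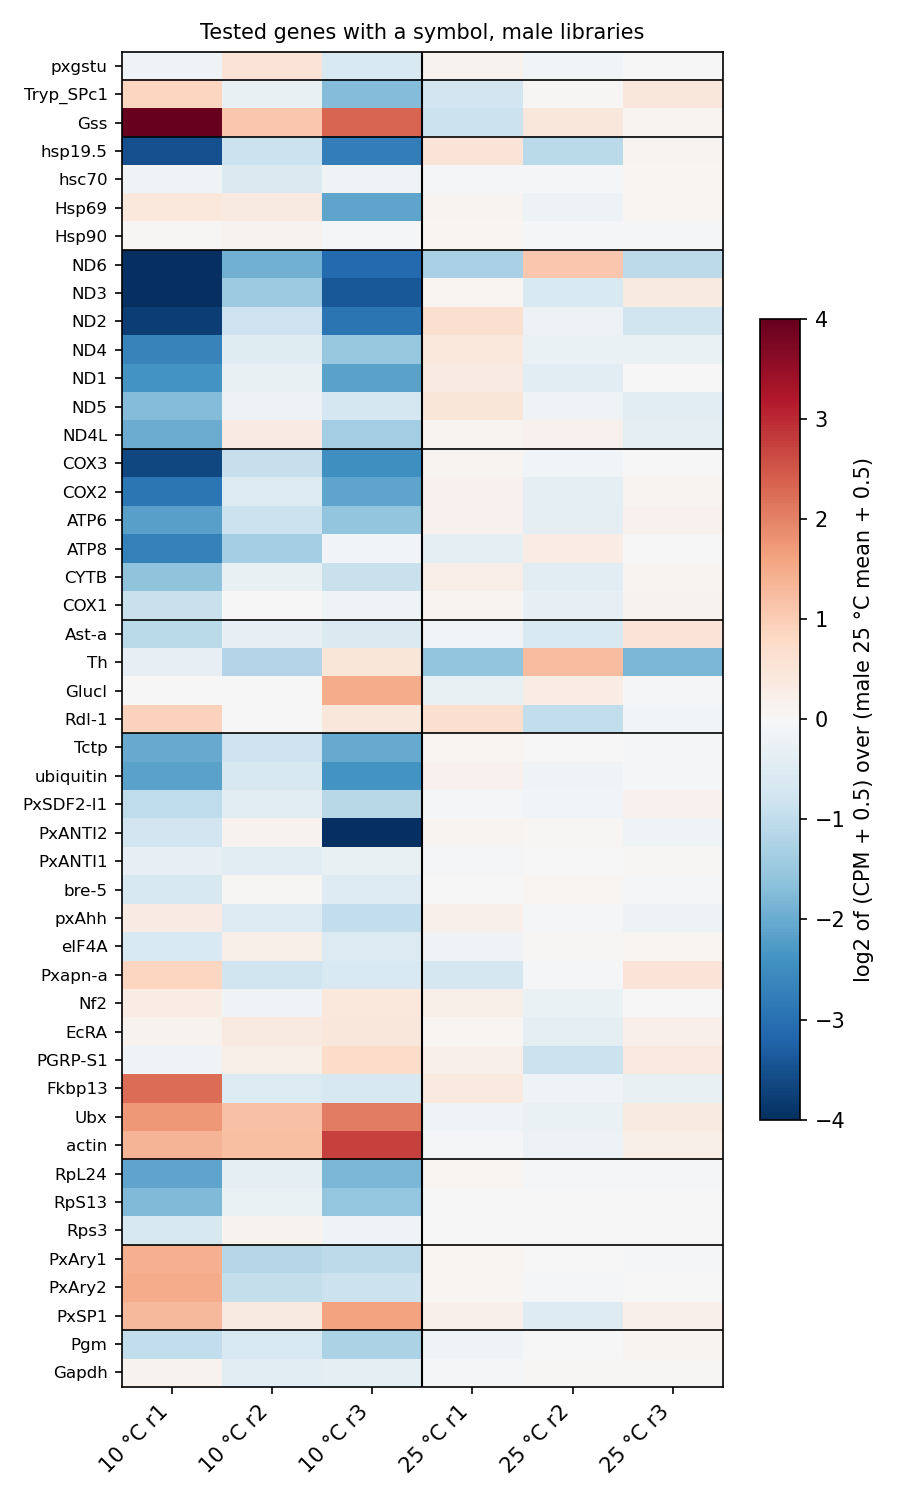
Heat map of log2 of (CPM + 0.5) over the male 25 °C mean plus 0.5 for the 47 tested genes with a symbol (rows, grouped by role between black lines) in the 6 male libraries (columns, 10 °C left of 25 °C); red is higher and blue lower, capped at 4. Most mitochondrial genes, Tctp, ubiquitin, RpL24 and RpS13 are deeper blue in 10 °C replicates 1 and 3 than in replicate 2, while PxAry1 and PxAry2 are red in 10 °C replicate 1 and blue in replicates 2 and 3.

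The libraries labelled female share no library with this comparison and had log2 changes of the same sign at most of the called genes. Female 10 °C replicate 3 held the male-high genes at a median of 33.6%, and male 10 °C replicate 3 at 0.0969%. Either cold group may therefore hold larvae of the other sex, which was not tested. Of the 855 genes that rose in males, 831 had a positive log2 change in females (97.2%, beside 54.4% of all tested genes), and of the 230 that fell, 216 had a negative one (93.9%, beside 45.6%). Female groups lay apart in the same direction for 244 of the rises (28.5%, beside 11.2%) and 124 of the falls (53.9%, beside 9.80%). The median female change was 1.01 for the rises, against 3.07 in males, and -1.84 for the falls, against -1.95 in males. The genes were chosen on the male values, which favours large male values. In females the fit of all 12 libraries called 6 of 15027 genes (0.0399%), all lower at 10 °C and all among the 1085. The same fit tested the difference of the cold response between the sexes and called 0 genes, while 1351 were below an unadjusted p of 0.05, and DESeq2 and voom were not run on it here.

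The female 25 °C libraries did not form a single level for these genes. On the scale of the male 25 °C mean, the 855 rises had median log2 ratios of 2.31, 3.15 and 2.45 in female 10 °C replicates 1, 2 and 3, and of 1.72, 2.48 and 0.00 in female 25 °C replicates 1, 2 and 4. Female 25 °C replicates 1 and 2 thus stood with the cold libraries of both sexes, and replicate 4 stood with the male 25 °C libraries. The 230 falls had medians of -1.92, -3.20 and -2.29 in the female 10 °C libraries and of -0.78, -1.59 and 0.12 in the female 25 °C libraries. The same held at single loci: LOC105393634 was at 4948, 29590.6 and 8732 CPM in females at 10 °C and at 6060.4, 11549 and 1240.4 CPM in female 25 °C replicates 1, 2 and 4 (scaled over all libraries). LOC105395498, LOC105394799 and LOC105385516 were likewise higher in female 25 °C replicates 1 and 2 than in male 25 °C libraries. Some falls were different. LOC105381203 was at 1.54, 1.13 and 1.11 CPM in female 10 °C libraries and at 42.1, 24.1 and 63.0 CPM in female 25 °C libraries, so that temperature separated all 12 libraries there. Temperature also separated all 12 libraries at LOC105386543, LOC105387993, LOC105385735 and LOC105382118. At the other falls described above by locus identifier, levels overlapped between the temperatures once the female libraries were included. The part of stage, tissue share or labelling in these patterns was not tested.

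**Figure D5:**
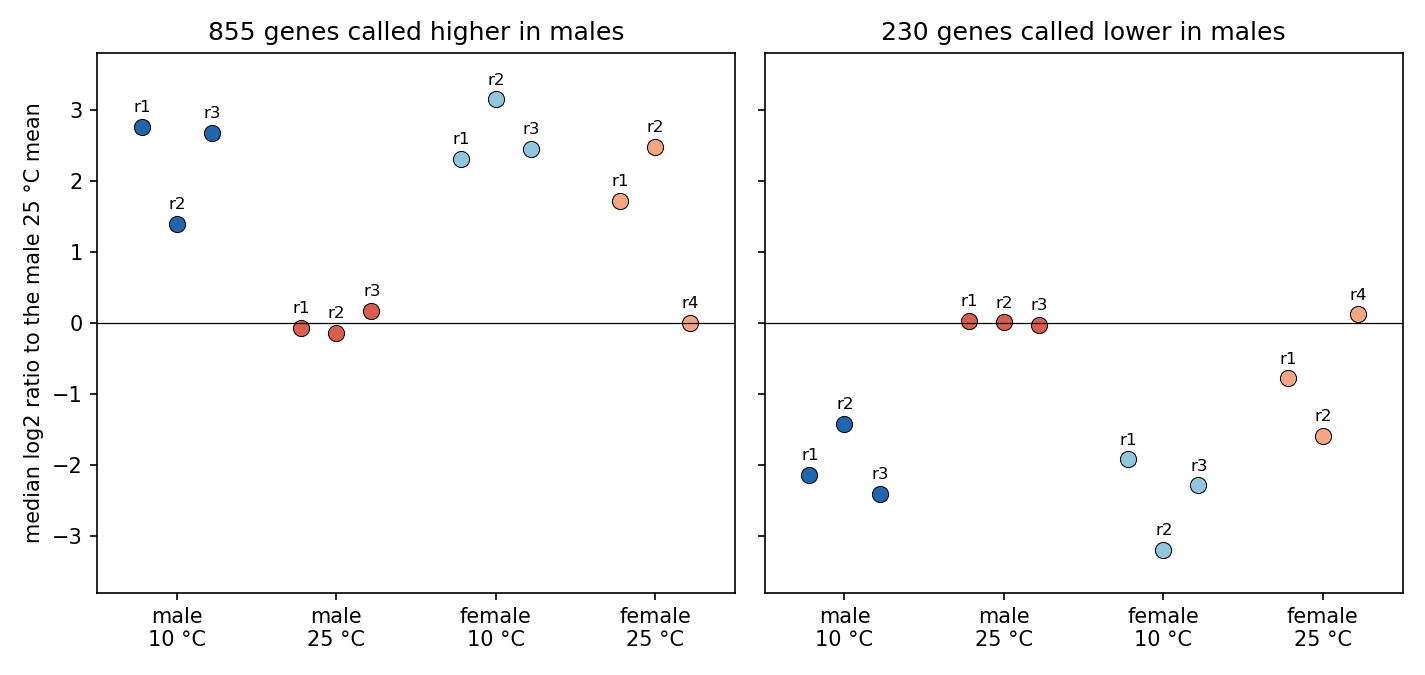
Median log2 ratio to the male 25 °C mean (0.5 CPM added) in each of the 12 libraries for the 855 genes called higher (left) and the 230 called lower (right) in males; points are libraries (r, replicate) in 4 groups. Female 25 °C replicates 1 and 2 lie toward the 10 °C libraries in both panels, and female 25 °C replicate 4 lies at 0.00 and 0.12, with the male 25 °C libraries.

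The intron read share, a sign of unspliced RNA or DNA in a library, was 4.23%, 4.53% and 6.12% of gene reads in 10 °C replicates 1, 2 and 3 and 4.53%, 4.14% and 4.45% at 25 °C (means 4.96% ± 1.02 and 4.37% ± 0.208, SD, n = 3 each, exact permutation test, two-sided, p = 0.4). The single high library was 10 °C replicate 3, where the male-high genes were lowest. Without it the difference of 0.589 percentage points was 0.0092. Reads across exon junctions made up 56.5%, 50.7% and 47.0% of exon reads in the cold libraries and 48.0%, 48.8% and 46.1% at 25 °C, with replicate 1 of 10 °C highest.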

How the data were processed

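The deposited tables give, per the file headers, whole-number read counts per gene (total, unique, exon, intron and exon junction reads) beside the authors' TPM and RPKM values and the fraction of unique among total exon reads (a ratio), with exon numbers and lengths. No aligner, counter, build or annotation is named in the sources used here. In 100% of entries the total count equalled exon plus intron reads. TPM, RPKM and the fraction entered no test. Per the labels' protocols, libraries were poly(A), random-primed and sequenced as paired reads. Strand use in counting is not given, so overlapping genes are uncertain.

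Total gene reads were tested with edgeR 4.0.16 in R 4.3.3: TMM scaling, the edgeR expression filter (minimum count 10, minimum total 15) and robust quasi-likelihood fits of 2 group means over the 6 male libraries. Standard errors are the log2 change over the square root of the F statistic. A fit of all 12 libraries was an alternative. The male fit was preferred because the female 10 °C libraries set part of the spread in the alternative. Of these, replicate 3 held the male-high genes at a median of 33.6% of their male 25 °C mean. Male 10 °C replicate 3, at a median of 0.0969%, set part of the spread in the male fit, so the choice did not avoid such libraries. That choice, the gene lists and the rule for named loci (the 5 largest called rises and falls by fold at 10 CPM or more, and by CPM difference, with groups apart and at least 50% unique reads, all genes with a symbol, and all calls of the fit of all libraries) were made with earlier results of these data, including the counts of both fits, known. Lists were read by counts and medians. Alternatives used DESeq2 1.42.0, limma 3.58.1 voom and the settings given at the end. P-values measure the spread between pools of larvae. Symbols came from a RefSeq gene table of the assembly ilPluXylo3.1, which matched 10698 of 18895 loci and named 39. No sequences were used. The fitting code was tested on simulated data.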

Additional observations from a re-analysis of the deposited data

How the results depend on the processing

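The count of 1085 calls stayed within 1.5 times under RLE size factors, other filters, unique or exon reads, exon-length offsets and a log2 change of at least 1 (1059 to 1276). It was 4033 with DESeq2, 5648 with voom, 3 in the fit of all 12 libraries and 0 with the replicate block. Leaving out single male libraries gave 0 to 5577 calls, and 1 to 7182 at an adjusted p below 0.1; that limit, added after seeing the data, gave 3445 with all male libraries and 2910 in the fit of all 12. Requiring a 2-fold gap left 906 of 3438 genes above and 315 of 2918 below. In the block fit 4406 genes had an unadjusted p below 0.05, and all 1085 genes kept their sign. Among 1033 called genes tested on exon reads, 1029 kept their sign, and all that were tested did so in the other settings. Same-numbered male libraries had correlations of deviations of -0.083, 0.078 and 0.13. With 3 libraries per group these values cannot show whether same-numbered libraries were handled together. The causes were not tested. Among 69 named genes, the voom fit gave opposite signs for Th (1.20) and PxAry1 (-0.066), and the replicate block for Th (0.60), PxAry1 (-0.29), PxAry2 (-0.14) and Pxapn-a (-0.14). Exon-length offsets did so for Rps3 (0.35), Tryp_SPc1 (0.50), Glucl (-0.0029), PxAry1 (-0.14), PxAry2 (-0.046), Hsp90 (-0.34), Pxapn-a (-0.42), EcRA (-0.21), pxgstu (0.43) and ND4L (0.066). The fit of all 12 libraries did so for Hsp90 (-0.0050) and Pxapn-a (-0.040), no filter for Pxapn-a (-0.017) and exon reads for Pxapn-a (-0.025). Leaving out single libraries gave ranges across 0 for Th (-0.70 to 1.54), Rps3 (-0.30 to 0.0040), Fkbp13 (-0.59 to 1.53), Tryp_SPc1 (-0.84 to 0.39), Glucl (-0.015 to 1.02), PxAry1 (-1.08 to 0.75), PxAry2 (-0.90 to 0.84), Gapdh (-0.38 to 0.0065), Hsp69 (-0.39 to 0.41), Hsp90 (-0.023 to 0.092), PGRP-S1 (-0.028 to 0.78), Pxapn-a (-0.70 to 0.39) and pxgstu (-0.48 to 0.30). None of these genes was called. With no filter on low counts LOC105381635, LOC105389538, LOC105398164 and LOC105383573 lost their call (adjusted p from 0.0502 to 0.0543), as did Ubx and LOC105384007 with the offsets (0.0552 for each). Depth limits genes near 0.252 CPM before TMM scaling, or near 0.294 CPM after it in 25 °C replicate 2, and 3 pools per group limit every p.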
